A study of Mus musculus with 76 samples.

Results

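Heat shock chaperones keep newly made and damaged proteins folded. HSP70 proteins (Hspa1a, Hspa1b, Hspa8) bind exposed segments of a client with the help of HSP40 partners such as Dnaja1 and exchange factors such as Hsph1, the HSP90 proteins (Hsp90aa1, Hsp90ab1) take over clients such as kinases and steroid receptors, small heat shock proteins such as Hspb1 hold unfolded clients without using ATP, and HSP60 (Hspd1) with its lid HSP10 (Hspe1) folds proteins inside mitochondria. Under stress the heat shock factor HSF1 binds heat shock elements and switches many of these genes on, while Hspa8 and Hsp90ab1 are made in unstressed cells too. FNIP1 and FNIP2, the folliculin-interacting proteins, are co-chaperones of HSP90 that slow its ATPase cycle, which is the link between these genes and the allele studied here.

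These 10 genes were taken by their symbols from the gene tables of visceral white adipose tissue (WAT) and liver, which list 18964 and 16775 genes. All 10 are in both tables. A gene was tested where its normalized counts averaged 10 or more, so 10 were tested in WAT and 9 in liver, where Hspa1a was too low. The tissues came from female C57BL/6 mice with ad libitum access to food and drink. Fnip2C/C mice carry a T-to-C knock-in in the Fnip2 3′UTR on both copies, made with CRISPR/Cas9 together with a G-to-C change that removes the PAM, and Fnip2T/T mice carry the ancestral T on both copies. The comparison group therefore differs from the knock-in at both bases. There were 4 Fnip2C/C and 5 Fnip2T/T libraries from WAT and 5 and 5 from liver, 1 library per mouse and tissue, and 6 mice gave both tissues. The age of these mice is not given in the sources used here. The libraries were made from the 3′ ends of mRNAs, so a transcript counts once whatever its length. The normalized counts correspond to 4180209 to 6277644 reads per WAT library and 5583041 to 7523200 per liver library.

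Visceral fat was read against its markers first. The summed adipocyte markers lay between 126350 and 353704 normalized counts in Fnip2C/C and between 274010 and 483122 in Fnip2T/T WAT. Of the 10 markers, 6 were lower in Fnip2C/C. All counts of marker calls in WAT stand beside 15.1% of all genes tested there called higher and 17.0% called lower. The Fnip2C/C library of mouse 593 was the lowest in adipocyte markers, and its summed ovary and follicle markers reached 24728 against 51.4 to 142 in the other WAT libraries. Endothelial markers gave 3 lower and 1 higher of 6 in Fnip2C/C, with sums of 1437 to 2686 against 2583 to 3833, and the 7 of 10 hepatocyte markers in the WAT table summed to 214 to 660 against 833 to 2893. In liver the summed hepatocyte markers lay between 723713 and 920228 and none of the 10 was called. Immediate early genes such as Fos and Egr1, which answer handling and stress, were followed through 11 genes. In WAT 8 of the 11 were tested, and 3 were higher and 2 lower in Fnip2C/C. Sums over the 11 were 665 to 946 in Fnip2C/C against 486 to 819 in Fnip2T/T. In liver none of the 7 tested was called. The sum of the Fnip2C/C mouse 592 stood at 1387 against 310.3 to 567 in the other livers. The part of these markers in the WAT differences below was not tested, but the counts of calls in WAT over all the chaperones and over the whole chaperone network are also given without mouse 593. In bulk tissue, fewer cells of a type and less RNA per cell cannot be told apart.

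Heat shock elements, the DNA that HSF1 binds, are repeats of the unit GAA in alternating direction. They are shown here because Hspd1 and Hspe1 share a match, a choice made after their WAT values were seen. Binding of HSF1 was not measured. RefSeq promoter windows (GRCm38.p6, 250 bases before to 50 after the gene start) were found for 7 of the 10 genes. The others are Hspa8, Hsp90aa1 and Hsp90ab1. Runs of 3 units in a row, GAANNTTCNNGAA or TTCNNGAANNTTC, were searched on both strands, and overlapping matches were merged. Such a run lay in the windows of Hspd1, Hspe1 and Hsph1, against 0.662% of 27025 genes with a window. Among 71 other chaperone network genes with a window it lay in Dnajb6 and Chordc1. The runs are in capitals.
Hspd1, minus strand, chr1:55088053-55088082, run from 144 to 127 bases before the start: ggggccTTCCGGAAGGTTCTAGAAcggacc
Hspe1, plus strand, chr1:55088053-55088082, run from 89 to 72 bases before the start: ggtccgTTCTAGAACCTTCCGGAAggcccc
Hsph1, minus strand, chr5:149636279-149636308, run from 15 to 27 bases after 1 of its starts: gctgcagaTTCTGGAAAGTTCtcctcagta
Dnajb6, plus strand, chr5:29735844-29735873, run from 46 to 34 bases before 1 of its starts: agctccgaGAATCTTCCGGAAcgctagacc
Chordc1, plus strand, chr9:18292260-18292289, run from 4 bases before to 18 after the start: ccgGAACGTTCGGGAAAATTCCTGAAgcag
Hspd1 and Hspe1 are divergent neighbours, and the 18 bases in capitals are the same 4 units read from opposite strands. Chordc1, an HSP90 co-chaperone with zinc-binding CHORD domains, held 5 units. Pairs of units (GAANNTTC or TTCNNGAA) were in all 7 windows of the chaperones and in 17.0% of all genes. A match is only a match of letters.

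The first comparison asked whether chaperone mRNAs differed between Fnip2C/C and Fnip2T/T WAT. Genotype coincided there with even and odd RNA label numbers, so these cannot be told apart. The pair of HSP90 genes was higher in Fnip2C/C, and Hspa8, Hspb1 and Hspd1 were lower. That is 5 of 10 genes past an adjusted p of 0.05 (limma on log2 normalized counts, adjusted over 12798 genes), beside 32.1% of all genes tested. By direction, 2 were higher, beside 15.1% of all genes, and 3 were lower, beside 17.0%. Of the 10 genes, 8 had a negative log2 fold change, and the median over the 10 was -0.66 against 0.02 over all genes. With 10 genes, a count of 5 is not read as particular to the chaperones. Without mouse 593 the count was also 5, again 2 higher and 3 lower. The genotypes did not overlap for 5 of the 10 genes, beside 26.1% of all genes.

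**Figure D1:**
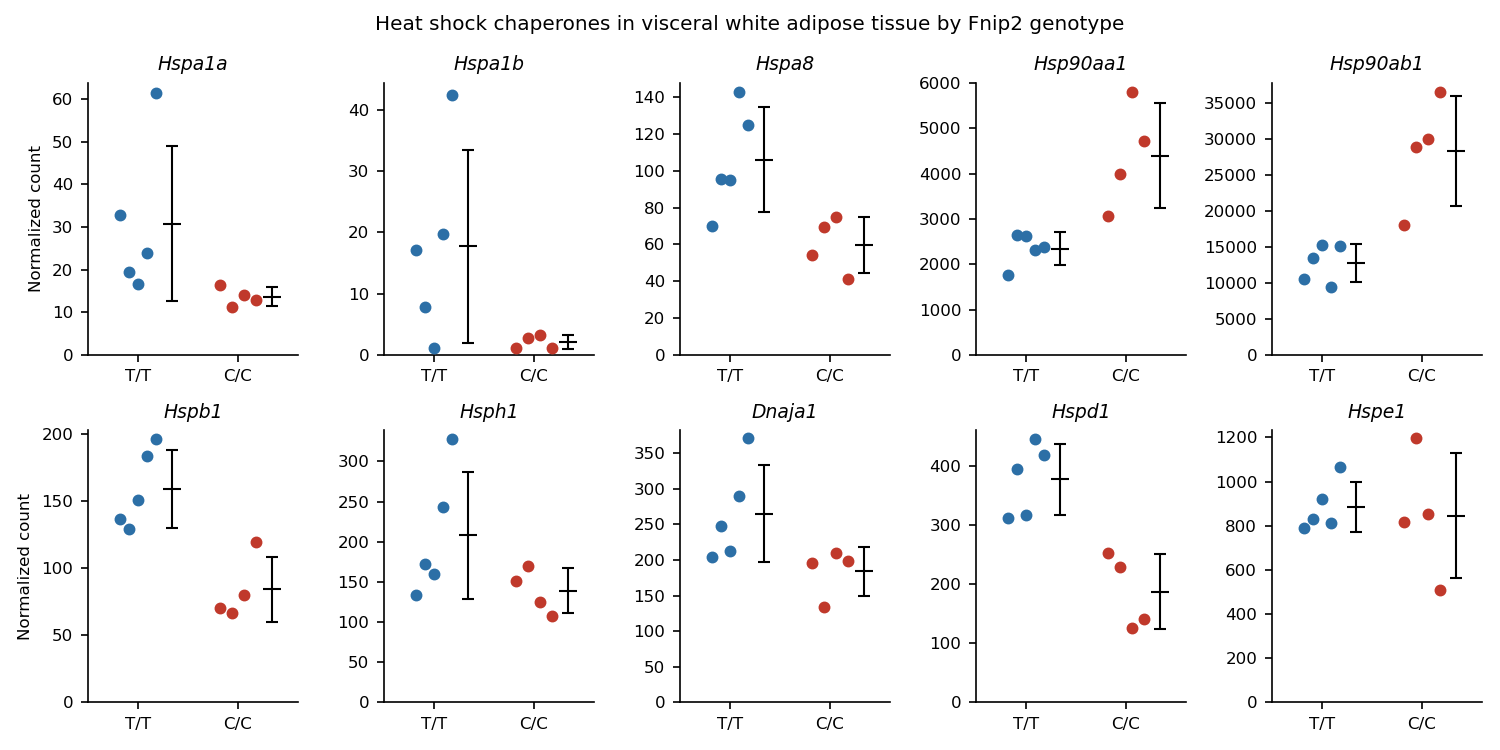
Normalized counts of the 10 chaperone genes in WAT, 1 point per mouse, Fnip2T/T (5 mice) in blue and Fnip2C/C (4 mice) in red, with the mean and SD as black bars beside the points and each vertical axis starting at 0. The points of the genotypes do not overlap for Hsp90aa1, Hsp90ab1, Hspb1, Hspd1 and Hspa1a, the last by a gap of 16.5 to 16.7.

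Hsp90ab1, the constitutive cytosolic HSP90, was the most abundant chaperone of the set. Its normalized counts were 18015, 28873, 29934 and 36426 in Fnip2C/C mice 590, 593, 599 and 638. They were 10546, 13379.9, 15309, 9355 and 15086 in Fnip2T/T mice 607, 608, 609, 657 and 658. Every Fnip2C/C mouse was above every Fnip2T/T mouse. The mean in Fnip2C/C was 28312 ± 7634 (SD, n = 4), 2.20-fold above the 12735 ± 2682 (SD, n = 5) of Fnip2T/T (log2 fold change 1.13, SE 0.27, limma adjusted p = 0.00729).

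Hsp90aa1, the stress-inducible HSP90, moved the same way. Its counts were 3068, 3983, 5804 and 4713 in the Fnip2C/C mice and 1763, 2654, 2629, 2310.5 and 2369 in the Fnip2T/T mice. The genotypes did not overlap here either. Hsp90aa1 was 1.84-fold higher (log2 fold change 0.88, SE 0.22, limma adjusted p = 0.0106). The ratio of Hsp90ab1 to Hsp90aa1 within a library, a comparison chosen after the values were seen, was 2.68 ± 0.27 on the log2 scale in Fnip2C/C and 2.43 ± 0.26 in Fnip2T/T (exact two-sided permutation p = 0.214). Together the pair took 0.690% ± 0.187 of all reads in Fnip2C/C and 0.331% ± 0.0436 in Fnip2T/T WAT. Both calls held under each alternative tried, including without mouse 593.

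Hspd1, mitochondrial HSP60, had the lowest adjusted p of the set. It was at 253, 228, 125.7 and 141 normalized counts in Fnip2C/C and at 311, 395, 316, 444 and 418 in Fnip2T/T. The highest Fnip2C/C mouse was below the lowest Fnip2T/T mouse. The log2 fold change was -1.06 (SE 0.23, limma adjusted p = 0.0048), and the mean was 187 ± 63.1 against 377 ± 60.4. Of the 50-base windows at its 3′ ends, 29.8% are shared with other annotated genes, and these rows did not follow it. The processed pseudogene Hspd1-ps3 had a mean of 28.7 ± 6.21 in Fnip2C/C and 12.3 ± 4.35 in Fnip2T/T, the opposite direction (log2 fold change 1.22, limma adjusted p = 0.0245). Summed with its 3 pseudogene rows, Hspd1 had a log2 difference of -0.72 (exact two-sided permutation p = 0.0238). The rows differ in shared sequence. Of the 1081 windows of Hspd1, 322 occur in Hspd1-ps3, 11 in Hspd1-ps5 and 2 in Hspd1-ps4. Hspd1-ps4 was at 38.9 ± 18.5 in Fnip2C/C and 34.7 ± 21.7 in Fnip2T/T. A split of reads between these rows was not tested.

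Hspe1, the HSP10 lid that works with Hspd1 and has the same 18-base run in its promoter window, was at 819, 1199, 852 and 509.5 in Fnip2C/C and at 791, 829.9, 921, 813 and 1068 in Fnip2T/T. The groups overlapped widely, with the Fnip2C/C mice holding both the highest and the lowest value. The log2 fold change was -0.12 (SE 0.23, 95% interval -0.61 to 0.37, limma adjusted p = 0.707). The log2 ratio of Hspd1 to Hspe1 was -2.17 ± 0.49 in Fnip2C/C and -1.24 ± 0.26 in Fnip2T/T, without overlap. That difference of -0.93 reached the smallest p these groups allow (exact two-sided permutation p = 0.00794) and was chosen after the values were seen. The log2 fold change of Hspe1 alone turned sign without mouse 638 (0.10). Hspe1 shares 53.2% of its 3′ windows with other genes.

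Hspb1, the small heat shock protein called HSP25 in mice, was at 70.6, 66.4, 80.2 and 119 in Fnip2C/C and at 137, 129, 151, 183 and 196 in Fnip2T/T. All Fnip2C/C mice were below all Fnip2T/T mice. This change of -0.93 on the log2 scale (SE 0.22, limma adjusted p = 0.00668) held as a call under each alternative tried. Hspb1 shares 39.2% of its 3′ windows with a processed pseudogene.

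Hspa8, the constitutive HSP70 that also serves chaperone-mediated autophagy, was at 54.1, 69.3, 74.8 and 41.0 in Fnip2C/C and at 69.8, 95.3, 94.9, 143 and 125 in Fnip2T/T. The lowest Fnip2T/T mouse, 607, lay within the Fnip2C/C range. The log2 fold change was -0.80 (SE 0.25, limma adjusted p = 0.0286). This call was lost without mouse 590, 638, 657 or 658, with adjusted p from 0.0533 to 0.0807, and with library weights, at 0.0506. It is also the gene with the most shared sequence, 68.6% of its 3′ windows occurring in up to 11 other genes, mostly processed pseudogenes, and it had 35 to 165 reads per library.

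The inducible HSP70 genes were the scarcest of the set, and neither passed the test over all genes. Hspa1b gave 1.18, 2.81, 3.25 and 1.17 normalized counts in Fnip2C/C, from 1 to 3 reads per library, and 17.2, 7.78, 1.116, 19.8 and 42.4 in Fnip2T/T. In Fnip2T/T, 4 of 5 mice were above all Fnip2C/C mice and the fifth, mouse 609, had 1 read. The log2 fold change of -2.08 had an SE of 0.80 (limma adjusted p = 0.0627) and rested on 1 to 56 reads. Hspa1b reached the minimum mean of 10 only through Fnip2T/T, where it was high, and it fell below that minimum without mouse 607, 657 or 658. Its paralogue Hspa1a was at 16.5, 11.2, 14.1 and 12.9 against 32.8, 19.5, 16.7, 23.8 and 61.4, a log2 fold change of -0.97 (SE 0.38, limma adjusted p = 0.0624). Mouse 658 was the highest for both. Their calls changed with the setting. Without mouse 609 both passed, with a log2 fold change of -2.72 and an adjusted p of 0.00611 for Hspa1b and -1.15 and 0.0343 for Hspa1a. On the recovered reads, edgeR called both, with adjusted p of 0.0167 and 0.0426, and so did DESeq2, with 0.00282 and 0.0297.

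Hsph1 and Dnaja1, the HSP110 exchange factor and an HSP40 that hands clients to HSP70, did not pass the test. Hsph1 ranged from 108 to 170.3 in Fnip2C/C and from 134 to 328 in Fnip2T/T, a log2 fold change of -0.52 (95% interval -1.08 to 0.03, limma adjusted p = 0.133). Dnaja1 ranged from 134 to 210.3 and from 204 to 371, a log2 fold change of -0.51 (95% interval -0.97 to -0.04, limma adjusted p = 0.0869). For both genes the highest values came from Fnip2T/T mice 657 and 658.

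The mice fall into 2 ranges of numbers, under 610 and over 630, which the labels do not explain. Within the lower range (3 mice per genotype) the log2 differences were 0.95 for Hsp90ab1, 0.84 for Hsp90aa1, -0.93 for Hspb1, -0.80 for Hspd1 and -0.39 for Hspa8. Within the upper range (1 against 2 mice) they were 1.62, 1.01, -0.66, -1.61 and -1.68 in the same order. For the 4 of these genes whose genotypes do not overlap, the same sign in each range follows from that. Hspe1 was at 0.16 in the lower range and -0.87 in the upper.

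The second comparison asked the same in liver, where none of the 9 genes tested passed (limma adjusted p = 1 for each, over 11710 genes) and 0% of all genes did. At an unadjusted p under 0.05, 0 of the 9 and 231 of all genes passed, and edgeR and DESeq2 on the recovered reads called 0 of the 9. Without mouse 592 the count was 0 as well. Log2 fold changes ran from -0.17 to 0.20. The genotypes overlapped for every chaperone, and failed to overlap for 0.248% of all genes.

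**Figure D2:**
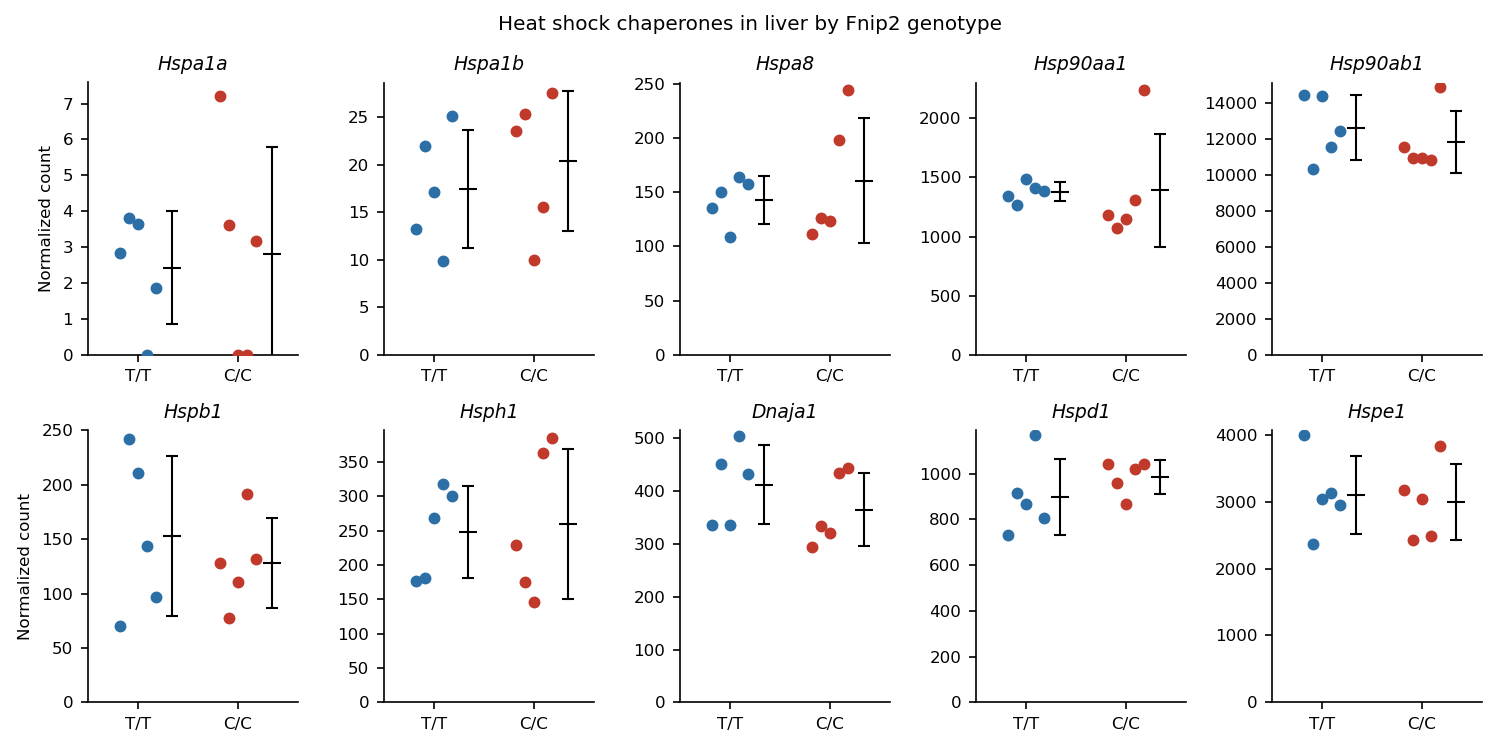
Normalized counts of the same 10 genes in liver, 1 point per mouse (5 per genotype), with the mean and SD as black bars and each vertical axis starting at 0. The genotypes overlap in every panel, and Hsp90aa1 and Hsp90ab1 each have 1 high Fnip2C/C point, mouse 639.

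Hsp90ab1 in liver was at 11557, 10932, 10956, 10846 and 14904 in Fnip2C/C mice 590, 591, 592, 638 and 639 and at 14474, 10328, 14381, 11578 and 12439.8 in Fnip2T/T mice 607, 608, 657, 658 and 659. The log2 fold change was -0.09, and its 95% interval of -0.38 to 0.19 does not reach the 1.13 measured in WAT. Hsp90aa1 was at 1179.8, 1072, 1149, 1313 and 2236 against 1345, 1267, 1486, 1413 and 1382 (log2 fold change -0.04, 95% interval -0.39 to 0.30). Mouse 639 set the Fnip2C/C spread of both genes.

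Hspd1 was at 867 to 1044 in Fnip2C/C and 733 to 1168 in Fnip2T/T liver (log2 fold change 0.15, 95% interval -0.12 to 0.42), and Hspe1 at 2433 to 3824 and 2366 to 3989 (-0.05, -0.37 to 0.27). The interval of Hspd1 lies above the -1.06 of WAT. Hspa8 was at 112 to 244 against 109 to 164, Dnaja1 at 295 to 444 against 336 to 505, and Hsph1 at 147 to 384 against 176 to 317. Hspb1 ranged from 77.8 to 191 in Fnip2C/C and from 69.8 to 242 in Fnip2T/T, and its 95% interval of -0.95 to 0.62 still holds the WAT value of -0.93. Hspa1b was at 10 to 27.5 against 9.88 to 25.1. Hspa1a was at 0 to 7.22 against 0 to 3.82, with 0 reads in 3 of the 10 livers, so no difference was detectable at this depth. In liver the log2 fold change of Hsph1 (0.00) turned sign under other scalings and that of Hsp90aa1 with edgeR and DESeq2, so no direction is read from them.

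Across the 10 livers the chaperones were compared pair by pair, 36 pairs in all. None passed after adjustment over the pairs. The highest was Hsp90ab1 with Hspe1 (Pearson r = 0.82, permutation p = 0.00457, adjusted 0.0902, Spearman rho = 0.78, permutation p = 0.0105, adjusted 0.174), which fell to r = 0.58 without the 2 livers farthest from the median of Hsp90ab1 and was 0.84 within the ranges of mouse numbers. Hspa8 with Dnaja1, an HSP70 and its HSP40 partner, had r = 0.77 (permutation p = 0.00848, adjusted 0.0909, Spearman rho = 0.75, permutation p = 0.0174, adjusted 0.174), r = 0.90 without the 2 farthest livers and 0.65 within the ranges. Hspd1 with Hspe1 had r = -0.20 (permutation p = 0.577, adjusted 0.827, Spearman rho = 0.07, permutation p = 0.865, adjusted 0.943).

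The third comparison set the genotype effects of the tissues against each other, over 19 libraries and 10404 genes. In WAT the genotype effect cannot be told apart from even and odd RNA label numbers, which are mixed within each genotype in liver. The effect differed for 5 of the 9 genes tested, beside 29.2% of all genes. It was more positive in WAT for Hsp90ab1 (difference 1.23, SE 0.29, limma adjusted p = 0.00362) and Hsp90aa1 (0.92, SE 0.28, 0.0175). It was more negative in WAT for Hspd1 (-1.21, SE 0.26, 0.00202), Hspa1b (-2.28, SE 0.80, 0.0369) and Hspa8 (-0.91, SE 0.33, 0.0436). Hspa1b was in this test only through its Fnip2T/T level in WAT, and with a minimum mean of 50, which leaves it out, 4 of 8 genes differed. For Hspb1 the difference of -0.77 did not pass (95% interval -1.63 to 0.09, limma adjusted p = 0.17), although Hspb1 was called in WAT. With the mouse as a replicate block the count fell to 3, the HSP90 pair and Hspd1, with Hspa1b at an adjusted p of 0.052 and Hspa8 at 0.056. Left out 1 at a time, WAT mice 590, 638, 657 and 658 and liver mice 639, 607 and 657 each lowered the count to 3 as well. Without WAT mouse 593 it was 5.

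**Figure D3:**
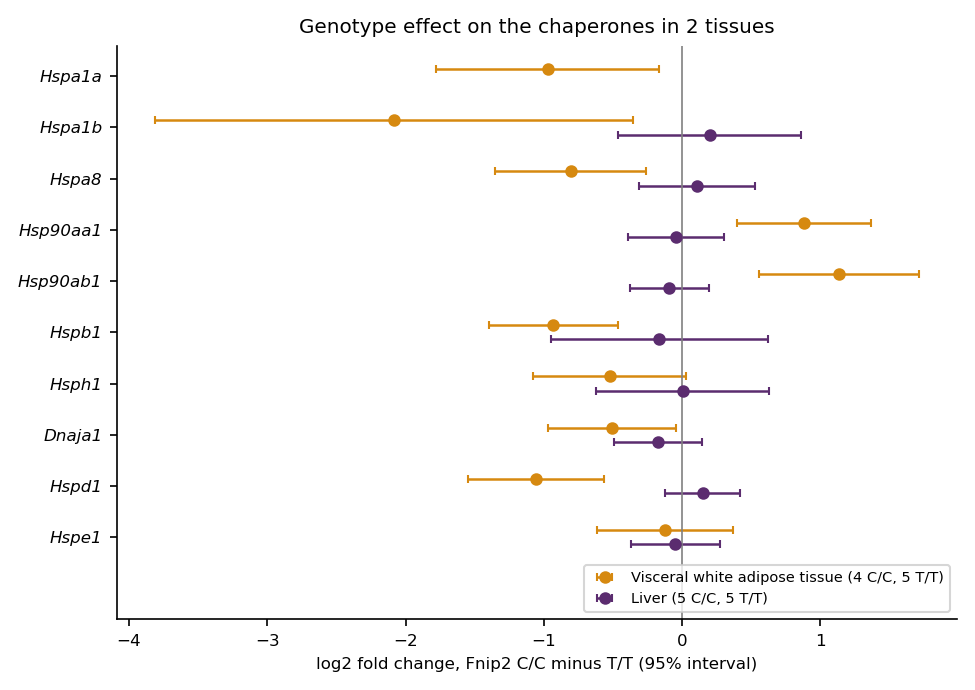
Log2 fold change (Fnip2C/C minus Fnip2T/T) of each chaperone with its 95% interval from limma, WAT in orange and liver in purple, with Hspa1a shown for WAT alone because it was too low in liver. The liver points lie between -0.17 and 0.20, while the WAT points run from -2.08 for Hspa1b to 1.13 for Hsp90ab1.

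Levels were also set in order within each tissue, as median RPM (reads divided by the library's total and multiplied by 1000000). In WAT the order was Hsp90ab1 (3171), Hsp90aa1 (577), Hspe1 (189), Hspd1 (64.9), Dnaja1 (43.8), Hsph1 (32.8), Hspb1 (28.1), Hspa8 (16.9), Hspa1a (3.44) and Hspa1b (0.677). In liver it was Hsp90ab1 (1731), Hspe1 (459), Hsp90aa1 (192), Hspd1 (143), Dnaja1 (56.3), Hsph1 (37.2), Hspa8 (21.1), Hspb1 (19), Hspa1b (2.94) and Hspa1a (0.419). In WAT the ranges over libraries of Hsp90ab1, Hsp90aa1 and Hspe1 did not touch, while from Hspd1 down to Hspa1b each gene's range overlapped that of the next. In liver the neighbours that overlapped were Hsp90aa1 with Hspd1, and Dnaja1, Hsph1, Hspa8 and Hspb1 in turn. By these medians Hspe1 lay below Hsp90aa1 in WAT and above it in liver, and Hspa1b lay below Hspa1a in WAT and above it in liver. The tables were normalized separately, so these levels carry no test, and genes with shared 3′ sequence may be counted low.

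The wider network around the chaperones was followed through 87 further genes, listed by role, of which 83 were tested in WAT. Of these, 30 passed, 11 higher and 19 lower in Fnip2C/C, which is close to the 32.1% of all genes, and the median log2 fold change was -0.08. Scaled to the same total per library, 28 passed, 7 higher and 21 lower. Without mouse 593, 27 passed. In liver 0 of 79 passed by limma, edgeR and DESeq2, and 2 had an unadjusted p under 0.05.

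**Figure D4:**
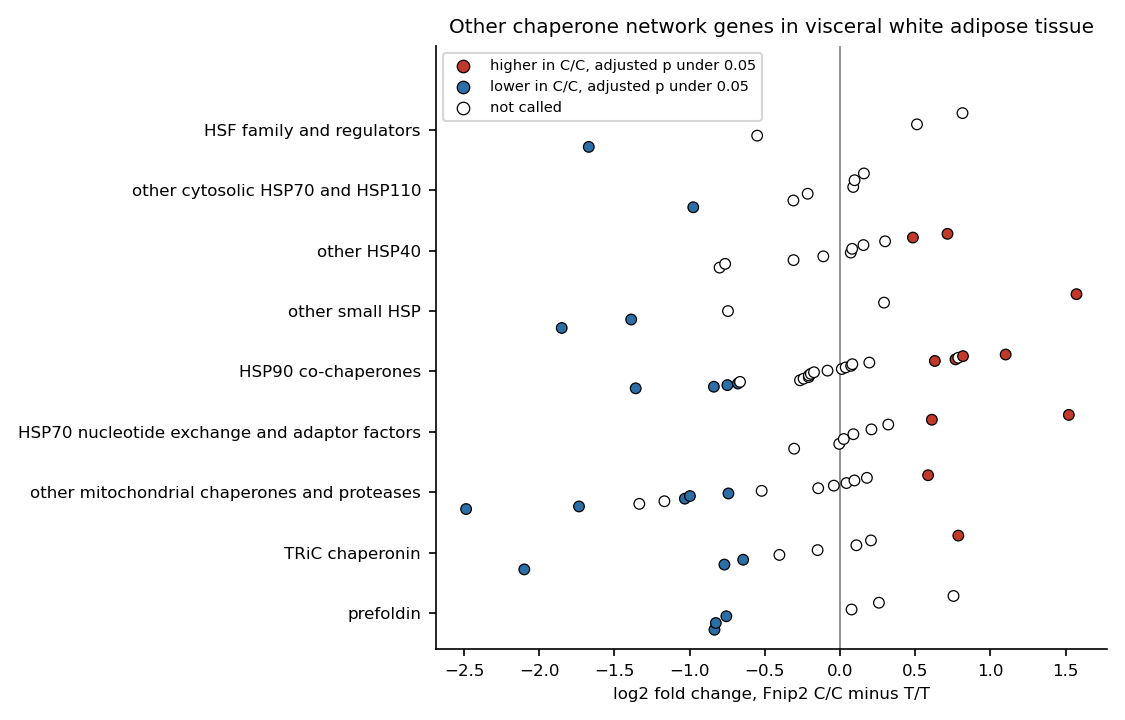
Log2 fold change (Fnip2C/C minus Fnip2T/T) in WAT of the 83 other chaperone network genes that were tested, 1 point per gene, in rows by role. Filled points passed an adjusted p of 0.05, red for higher and blue for lower in Fnip2C/C, and both colours occur among the HSP90 co-chaperones (4 and 4).

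Among the HSP90 co-chaperones, 8 of 22 passed, 4 in each direction, near the 32.1% of all genes. Among the higher were Stip1, the HOP adaptor that joins HSP70 to HSP90 (772 ± 196 against 362 ± 105 normalized counts, log2 fold change 1.10, limma adjusted p = 0.00587), Sugt1, which links HSP90 to ubiquitin ligases (588 ± 115 against 329.6 ± 33.4, 0.82, 0.00465) and the kinase adaptor Cdc37 (0.77, 0.0137). Lower were the phosphatase Ppp5c (-1.36, 0.0197), Chordc1 (-0.84, 0.0116), Cdc37l1 (-0.75, 0.00795) and Ahsa2 (-0.68, 0.031). The log2 ratio of Hsp90ab1 to Stip1 within a library was 5.19 ± 0.22 in Fnip2C/C and 5.16 ± 0.14 in Fnip2T/T (exact two-sided permutation p = 0.786), again chosen after the values were seen. In liver, Stip1 was the gene most like Hsp90ab1 among all genes tested, with r = 0.97 of residuals from the genotype means over 10 libraries, given as a description.

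The folliculin complex itself showed no call. In WAT, Fnip2 was at 22.8 ± 6.99 in Fnip2C/C and 28.3 ± 10.5 in Fnip2T/T (log2 fold change -0.27, limma adjusted p = 0.58). The change of Fnip1, 0.01 (limma adjusted p = 0.975), turned sign with the scaling, and that of Flcn was -0.67 (limma adjusted p = 0.138). In liver, Fnip2 was at 155 ± 29.2 and 104 ± 33.2, a log2 fold change of 0.63 (limma p = 0.0148, adjusted p = 1), and Tsc1, another HSP90 co-chaperone, had 0.28 (limma p = 0.0331, adjusted p = 1). These were the lowest p-values of the network in liver, followed by Hspa12a (0.60), Hspa4l (0.32) and Fnip1 (0.22), each with adjusted p = 1. Hspa12a reached the minimum mean of 10 in liver only through Fnip2C/C, where it was high (13.3 ± 4.04 against 8.3 ± 2.11).

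Mitochondrial chaperones and proteases gave 1 higher and 5 lower of 14, beside 15.1% and 17.0% of all genes. Hspa9, the mitochondrial HSP70 (mortalin), was at 590.0 ± 144 against 1194 ± 344 (log2 fold change -0.998, limma adjusted p = 0.0104). The matrix protease Lonp1 was at 51.4 ± 14.8 against 189 ± 102 (-1.74, 0.00438), the import receptor Tomm70a at -1.03 (0.00488), Dnajc19 at -0.74 (0.0356) and the protease Htra2 at -2.49 (0.0119). Htra2 reached the minimum mean of 10 only through Fnip2T/T (5.9 ± 5.19 against 38.5 ± 28.7). Bcs1l, an AAA chaperone of respiratory complex III, was higher at 0.59 (0.0403). Trap1, the mitochondrial HSP90, had 0.10 (limma adjusted p = 0.706).

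The TRiC chaperonin, the cytosolic ring that folds actin and tubulin, gave 1 higher and 3 lower of its 8 subunits, beside the same 15.1% and 17.0%. Cct4 was at 27.7 ± 7.77 against 135 ± 69.2 (log2 fold change -2.10, limma adjusted p = 0.00197), Cct3 at -0.77 (0.0202) and Cct6a at -0.64 (0.0235), while Cct5 was higher at 0.79 (0.00857). Subunits of 1 ring thus went in both directions. Its partner prefoldin gave 3 lower of 6, beside 17.0%, Pfdn6 at -0.83 (0.0114), Vbp1 at -0.84 (0.0387) and Pfdn1 at -0.76 (0.0212).

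Small heat shock proteins other than Hspb1 gave 1 higher and 2 lower of 5, beside 15.1% and 17.0% of all genes. Cryab, alpha B-crystallin, was at 73.3 ± 34.5 against 258 ± 69.5 (log2 fold change -1.85, limma adjusted p = 0.00121), and its divergent neighbour Hspb2 was at 7.84 ± 3.16 against 21.5 ± 6.23 (-1.39, 0.0187). Hspb2 too reached the minimum mean only through Fnip2T/T, and its call was lost without mouse 657 (limma adjusted p = 0.053). Hspb7, a muscle-enriched family member, was higher, at 134 ± 53.6 against 41.9 ± 11.5 (1.57, 0.00424).

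In the remaining roles, 1 of 4 HSF genes and regulators and 1 of 6 other HSP70 and HSP110 genes passed. So did 2 of 10 other HSP40 genes and 2 of 8 HSP70 exchange and adaptor factors, beside 32.1% of all genes. Hsbp1, a small protein that binds the HSF1 trimer and dampens its activity, was lower, at 279 ± 115 against 829 ± 91.1 (log2 fold change -1.67, limma adjusted p = 0.00118). Hsf1 itself (0.51, adjusted p = 0.119) and Hsf2 (-0.55, adjusted p = 0.122) did not pass. Stub1, the CHIP ubiquitin ligase that tags HSP70 and HSP90 clients, was higher, at 2291 ± 786 against 778 ± 168 (1.52, limma adjusted p = 0.00137), with Bag4 at 0.61 (0.0409) and Bag1 short of the threshold at 0.32 (0.163). Of the other HSP40 genes, Dnajc8 (0.72, 0.0333) and Dnajb6 (0.49, 0.0463) were higher and Dnaja2 did not pass (-0.80, 0.0598), although it did with edgeR (0.0452), DESeq2 (0.0275), library weights (0.00581) and the mouse-number term (0.0456), and without mouse 638, 608 or 609. Hspa12a, a distant HSP70 relative, was lower (-0.98, 0.0163), while Hspa14 (-0.31, 0.402) and Hspa12b (-0.22, 0.461) did not pass. The calls of Dnajc8, Dnajb6, Bag4 and Vbp1 were lost under several alternatives each, and that of Pfdn1 without mouse 638 (limma adjusted p = 0.0574).

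The 5 genes with 3 or more heat shock units in their windows had the following log2 fold changes in WAT. Over all genes tested there, 32.1% were called. A link of calls or signs with the units was not tested. Hspd1 (-1.06) and Chordc1 (-0.84) were lower, and Hsph1 (-0.52) and Hspe1 (-0.12) were negative but did not pass. Dnajb6 was higher (0.49), a call that was lost under 13 alternatives. Hspd1 and Hspe1 hold the same run, so they are not separate cases.

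The genes most like each chaperone were taken from all genes tested, as the 3 with the highest Pearson r of residuals from the genotype means. Over 9 WAT libraries these r ran from 0.90 to 0.99, and over 10 livers from 0.90 to 0.98. None of the 30 neighbours in WAT or the 27 in liver was another of the chaperones. With 3 neighbours taken from all genes tested, this does not show that the chaperones vary apart. In each tissue 1 neighbour was a network gene, Timm44 for Dnaja1 in WAT and Stip1 for Hsp90ab1 in liver. In WAT the leading neighbour was Psmd14, a proteasome lid subunit, for Hspa1a (r = 0.99), Manf for Hspa1b (0.97), Eola1 for Hspa8 (0.98), Yars for Hsp90aa1 (0.96), Oaz1 for Hsp90ab1 (0.96), Sh2b1 for Hspd1 (0.96) and Prdm16 for Dnaja1 (0.97). These are descriptions with no test.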

How the data were processed

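RNA from visceral WAT and liver of Fnip2C/C and Fnip2T/T mice was made into QuantSeq 3′ mRNA libraries (oligo-dT priming, stranded in the sense direction, from 500 ng of WAT RNA and 250 ng of liver RNA). The submitters' processing notes name FastQC 0.11.9, HISAT2, SAMtools 1.12, HTSeq, DESeq2 and GRCm39, with no roles, and the settings are not given in the sources used here. The 76 runs in the labels are 4 runs for each of 19 libraries. The deposited values are 1 normalized count signal per library and gene, scaled by the authors separately for each tissue, so levels are compared across tissues only as shares of a library's own reads. In every library these values were whole multiples of 1 step (100% of values within 0.01 of a whole number), which gave back the reads and the depth. Depth sets counting error only. One WAT column, 1 in all, matched no label and was left out.

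Values were taken as log2(value + 1), so fold changes of low genes are understated. Genes with a mean of at least 10 were fitted with limma 3.58.1 (R 4.3.3, trended and robust variances), with the Benjamini-Hochberg adjustment over all genes tested and a call at an adjusted p under 0.05. The comparisons were Fnip2C/C minus Fnip2T/T in each tissue and the difference between those effects. The 6 mice with both tissues share a mouse number, hence an animal, and the difference was refitted with the mouse as a replicate block. The correlation of their deviations between tissues ran from -0.203 to 0.156, with a consensus of -0.114. Single values were compared with exact two-sided permutation tests (126 groupings in WAT, 252 in liver, smallest p 0.00794), and liver pairs with 100000 resamples. edgeR 4.0.16 and DESeq2 1.42.0 on the recovered reads, other pseudocounts (0.5, 10), filters, scalings, weights, a term for mouse number, a threshold of 0.1 and leaving out each mouse were alternatives. RNA label numbers are even for all Fnip2C/C and odd for all Fnip2T/T WAT libraries, so parity and genotype cannot be told apart there. Scripts were tested on simulated data.

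The chaperones, the 87 network genes and the marker lists were chosen with earlier results of these data known. Named were all 10 chaperones, up to 3 genes of each role with the lowest p in WAT, the 5 lowest in liver, Fnip2, Fnip1 and Flcn. Most other network genes that passed, with Trap1, were named after their values were seen, and some genes are not reported here. Shared 3′ sequence was counted as 50-base windows in the last 500 bases of GENCODE vM21 transcripts (GRCm38) that occur in another gene. Promoters are RefSeq windows of 300 bases from GRCm38.p6. No coordinate was carried between builds.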

Additional observations from a re-analysis of the deposited data

Results flagged for a closer look

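The genotype effect differed between WAT and liver for 5 of the 9 chaperones tested, beside 29.2% of all 10404 genes. It was tested as the difference itself (limma over 19 libraries). On the log2 scale, the WAT effect minus the liver effect was 1.23 for Hsp90ab1, 0.92 for Hsp90aa1, -1.21 for Hspd1, -2.28 for Hspa1b and -0.91 for Hspa8. Hspa1b was tested only through its Fnip2T/T level in WAT. Hspa1b and Hspa8 lost the call with the mouse as a block (adjusted p 0.052 and 0.056).

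In 38 groups of 4 or 5 libraries, 3 held a library set apart from the rest by Dixon's test, and chance sets apart about 1 in 20. Dnaja1 was low in the Fnip2C/C WAT library of mouse 593, at 134 against 195 for the next, and this is the library with the ovary markers. The Fnip2C/C liver of mouse 639 was high for Hsp90aa1, at 2236 against 1313, and for Hsp90ab1, at 14904 against 11557. Without that liver the log2 fold changes in liver were -0.23 and -0.18. The cause was not tested for any of these.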

How the results depend on the processing

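The count of chaperones called in WAT was 5 to 7 under the other settings at an adjusted p of 0.05 (7, 2 higher and 5 lower, with edgeR and with DESeq2) and 8 at a threshold of 0.1, which admits more genes by construction. Leaving out 1 mouse gave 4 to 7. The network gave 26 to 38 calls and 20 to 32 without 1 mouse. In liver the counts of chaperones and of network genes were 0 under each setting. The count of chaperones whose effect differed between tissues was 3 with the replicate block for the mouse, 4 or 5 under the other settings and 3 to 5 without 1 library. The block changed no other call among them.

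Reversed signs occurred in values that passed no test, and the cause was not tested. Fnip1 in WAT was -0.021 with quantile normalization, -0.065 scaled to the same total, -0.14 with library weights, -0.075 with edgeR and -0.046 with DESeq2. In liver, Hsp90aa1 was 0.002 with edgeR, 0.009 with DESeq2 and 0.03 with the mouse-number term. Hsph1 in liver was -0.013 with quantile normalization, -0.007 scaled to the same total, -0.003 with weights and -0.059 with a term for even RNA label numbers, added after seeing the data. The tissue difference of Hspe1 was 0.005 with edgeR and 0.038 with DESeq2. Without 1 mouse, log2 fold changes ran from -0.311 to 0.1 for Hspe1 and -0.164 to 0.175 for Fnip1 in WAT. In liver they ran from -0.058 to 0.221 for Hspa8, -0.228 to 0.037 for Hsp90aa1, -0.408 to 0.036 for Hspb1, -0.165 to 0.181 for Hsph1 and -0.143 to 0.048 for Hspe1. The tissue difference of Hspe1 ran from -0.262 to 0.149. Scaling to the same total moved the median gene by -0.076 in WAT. Depth limits Hspa1a and Hspa1b, and shared 3′ sequence limits Hspa8 and Hspe1 most. Shared windows also made up 39.2% for Hspb1, 39.1% for Dnaja1, 29.8% for Hspd1 and 24.7% for Hsp90aa1.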
